A study of Mus musculus with 10 samples.

Results

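Glutathione, thioredoxin and antioxidant enzymes were followed as 36 genes, chosen by symbol from the 26146 genes of the count table, in hematopoietic stem cells (HSCs) with and without *Cited2*, a transcriptional co-regulator. All 36 had enough counts to be tested. Steady levels of most of them were close between the genotypes: 24 of the 36 had a negative log2 fold change (*Cited2* CKO over *Cited2* CTL), the median was -0.09, and none passed the main test, the quasi-likelihood test of edgeR, adjusted by Benjamini-Hochberg (adjusted p under 0.05 and a fold change above 20%). The mitochondrial thioredoxin reductase *Txnrd2* came closest, at 51.8 ± 6.85 CPM (counts per 1000000) in CKO against 71.4 ± 3.70 CPM in CTL HSCs (mean ± SD, n = 5 mice each, adjusted p = 0.109), and every CKO library lay below every CTL library. The peroxiredoxin *Prdx5* was also lower in every CKO library. The mitochondrial peroxiredoxin *Prdx3* and the cytosolic glutaredoxin *Glrx3* were higher in every CKO library, by 12.05% and 11.8%. Adjusted p-values by edgeR were 0.293 for *Prdx5*, 0.325 for *Prdx3* and 0.320 for *Glrx3*. Over all tested genes 1.98% were lower and 1.35% higher without overlap. With an offset for GC content and length the genotypes overlapped for *Prdx5*, *Prdx3* and *Glrx3*. The CKO libraries include the library labelled CKO 3, whose *Cited2* lay within the CTL range. The median log2 fold change was -0.07 over 17 cytosolic and 0.02 over 6 mitochondrial members, and the mitochondrial median turned slightly negative after each library was corrected for GC content and length, or without CTL 3, CKO 5 or the library labelled CKO 3 (-0.0064 at the lowest).

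Cells remove superoxide and hydrogen peroxide with a chain of enzymes that draws its electrons from NADPH. Superoxide dismutases turn superoxide into hydrogen peroxide, which catalase, the peroxiredoxins and the glutathione peroxidases then reduce, the peroxiredoxins drawing electrons from thioredoxin and thioredoxin reductase and most glutathione peroxidases from glutathione and glutathione reductase. Mitochondria and cytosol hold separate members of many of these families, and the transcription factor NRF2, held in check by KEAP1, drives many of the genes through antioxidant response elements (ARE). HSCs are known to keep low levels of reactive oxygen species and to lose function when these rise.

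Both groups were C57BL/6J mice of 8 to 12 weeks with floxed *Cited2* alleles. CTL mice (*Cited2* fl/fl, called wildtype in the labels) lacked Cre, and CKO mice (*Cited2* fl/fl;Vav-iCre) carried a Cre driven in the hematopoietic system from Vav regulatory sequences, so that *Cited2* was removed from the developing blood system onward and not from the adult HSC alone. LSKCD48-CD150+ HSCs were sorted from 5 mice of each genotype, 1 library per mouse, and polyA RNA was sequenced. The effect of Cre without floxed alleles was not among the samples and was not tested.

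Libraries held between 3058690 and 4548795 counts, and the 36 genes took between 0.408% (CKO 3) and 0.471% (CTL 1) of them. *Cited2* lay at 3.80, 4.21, 120.1, 5.00 and 8.30 CPM in CKO 1 to 5, against 101 to 222 CPM in CTL. The library labelled CKO 3, at 120.1 CPM, was therefore within the CTL range, and counts are given below with and without it. Over the 5 libraries of each genotype the log2 fold change of *Cited2* was -2.51 (SE 0.94, adjusted p = 0.328 by edgeR, exact two-sided permutation p = 0.0159, where the smallest p this design allows is 0.00794), and without the library labelled CKO 3 it was -4.92 (edgeR adjusted p = 1.82e-06). HSC markers summed to 2369 to 2645 CPM in CTL and 2105 to 2450 CPM in CKO, lowest in the library labelled CKO 3. Erythroid genes summed to 158 to 262 and 193 to 231 CPM, granulocyte and monocyte genes to 419 to 1020 and 420 to 738 CPM, megakaryocyte genes to 676 to 793 and 660.1 to 870.2 CPM, and lymphoid genes to 119 to 204 and 155 to 216 CPM. At an unadjusted edgeR p under 0.05, 2 HSC markers were higher and 2 lower of 12 tested, 1 granulocyte and monocyte gene was higher and 1 lower of 12, 1 lymphoid gene was higher of 7, and 0 of 7 erythroid and 0 of 11 megakaryocyte genes passed. Of the listed genes, *Cd79a*, *Ms4a1*, *Cd3e*, *Hba-a1* and *Csf1r* were among those at 0 in at least 1 library, though *Ms4a1* reached 12.5 CPM. Other listed genes, such as *Cd79b* (41.2 to 70.5 CPM) and *Lyz2* (197 to 263 CPM), had counts in every library. *Mpo* measured 189.7 CPM in CTL 5 and 108.3 CPM in CKO 5, against 6.185 to 19.99 CPM in the other libraries. *Dntt* reached 50.46 CPM in CKO 5. The highest granulocyte and monocyte sums were those of CTL 5 and CKO 5, and at an unadjusted p under 0.05 1 member was higher and 5 were lower without CTL 5, and 1 was higher and 7 were lower without CKO 5. The share of all tested genes was not counted in either of these fits. Cell cycle genes summed to 1843 to 2080 CPM in CTL and 1737 to 2288 CPM in CKO, which overlapped. Of 12 cell cycle genes, 3 had an unadjusted edgeR p under 0.05 and were higher in CKO. Over all tested genes 5.8% were higher and 7.08% lower at that p, to be read beside each marker count above. The part of cell composition in the results below was not tested, and in bulk RNA fewer expressing cells cannot be told apart from less RNA per cell.

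CPM also moved with how densely a gene was covered. No gene of at least 500 bases had more than 1.596 counts per base on average, against a median of 0.0613 over tested genes and up to 0.864 for a member (*Gpx1*). The totals are below the number of reads that the study's methods give as sequenced, the sources used here do not say whether duplicate reads were removed, and the part of coverage in the levels of densely covered genes was not tested. In CTL 1, the smallest library, tested genes with under 0.1 counts per base sat at a median of -0.06 log2 CPM from the other CTL libraries, and the 235 genes with at least 0.6 counts per base sat at 0.20. CTL 1 was the highest CTL library for 19 of the 36 members. The median log2 fold change between the genotypes stayed between -0.01 and 0.02 in every coverage bin. An offset per library for counts per base, chosen after the data were seen, left 3 members higher and 6 lower at an unadjusted p under 0.05. The share of all tested genes at that p was not counted with this offset, so these counts have no background here.

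**Figure D1:**
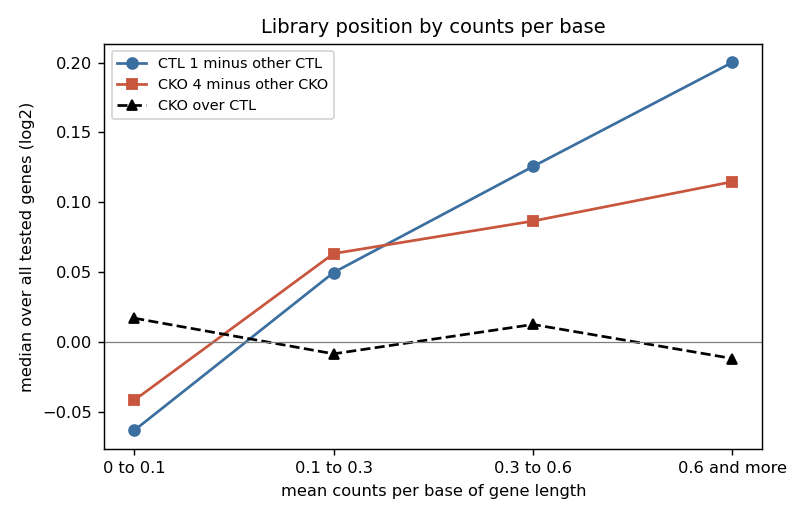
Median log2 difference over all tested genes (vertical axis) by mean counts per base of gene length (horizontal axis, 4 bins), for CTL 1 against the other CTL libraries (circles), CKO 4 against the other CKO libraries (squares) and CKO over CTL (triangles). CTL 1 runs from -0.06 to 0.20 and CKO 4 from -0.04 to 0.11, while the genotype difference stays near 0.

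Levels differed widely between members when set per gene length, in transcripts per 1000000 (TPM). The glutathione peroxidase *Gpx1* was highest in CTL HSCs at 538 ± 44.3 TPM, followed by the cytosolic superoxide dismutase *Sod1* at 456 ± 44.1 TPM, the thioredoxin-binding protein *Txnip* at 453 ± 45.2 TPM and the cytosolic peroxiredoxins *Prdx2* and *Prdx1* at 436 ± 30.5 and 357 ± 25.8 TPM. Of the 35 pairs of neighbours in this order, 32 had overlapping CTL ranges, the exceptions being *Prdx2* over *Prdx1*, *Prdx1* over *Prdx5* and *Txnrd2* over *Mgst3*. Lowest were the endoplasmic reticulum peroxidase *Gpx8* at 21.2 ± 16.8 TPM, *Gclc*, the catalytic subunit of the enzyme that starts glutathione synthesis, at 24.2 ± 5.56 TPM, and the peroxiredoxin repair enzyme *Srxn1* at 36.1 ± 7.77 TPM. The mitochondrial superoxide dismutase *Sod2* stood at 93.7 ± 7.25 TPM, far below *Sod1*. *Gpx1*, *Sod1*, *Txnip*, *Prdx2* and *Prdx1*, the 5 highest, were also the members with at least 0.6 counts per base.

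**Figure D2:**
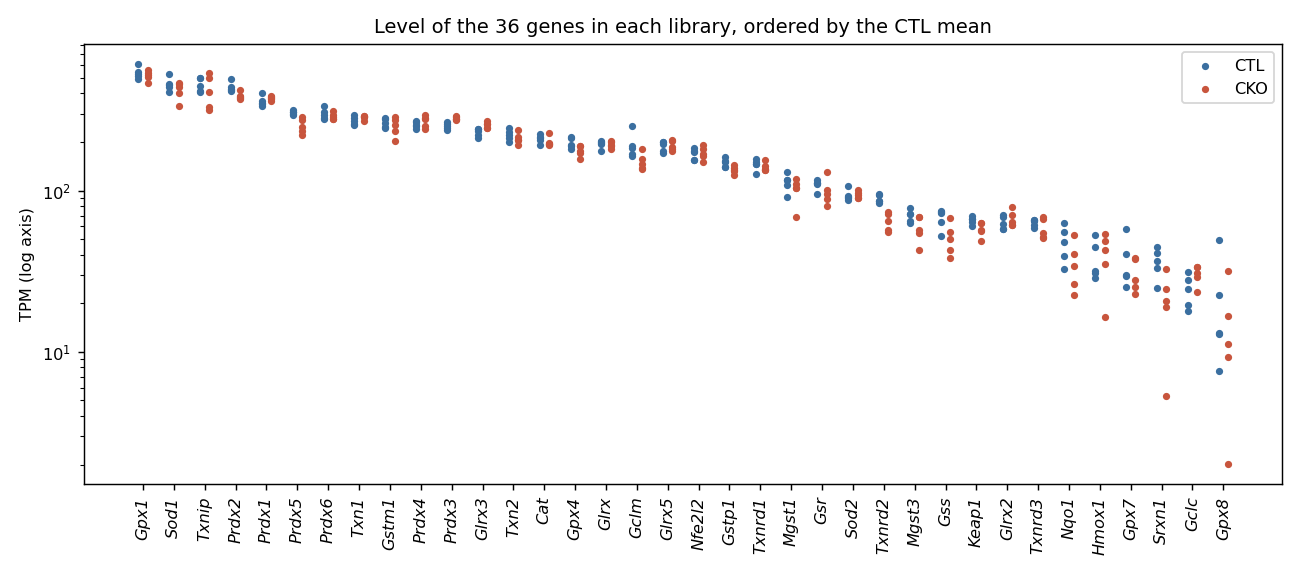
TPM of the 36 genes (log axis) in each of the 5 CTL and 5 CKO libraries, ordered from left to right by the CTL mean, 1 point per library. Levels run from 538 TPM (Gpx1) to 21.2 TPM (Gpx8) in CTL, and the points of CTL and CKO overlap for most genes, with Txnrd2 and Prdx5 among the exceptions.

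Promoter sequence gives context for the NRF2 targets. RefSeq promoter sequence (GRCm38) was at hand for 32 members, and the 250 bases before each start site were searched on both strands. The ARE core, TGACNNNGC, was found in 6 of these 32 promoters (18.8%), against 11.5% of the 27025 genes with a promoter sequence. The AP-1 site TGANTCA was found in 4 (12.5% against 7.82%), the E-box CACGTG in 2 (6.25% against 6.86%) and the GC box GGGCGG in 23 (71.9% against 35.4%). The members' promoters also had a higher median GC content, 58.4% against 52.4%. The comparison set was every gene with a promoter sequence, expressed in HSCs or not, while all members had enough counts to be tested. The following windows, each with 25 bases on both sides, hold the ARE core of members that encode the modifier subunit of glutathione synthesis, a peroxiredoxin, a superoxide dismutase and a thioredoxin reductase. Capitals mark the core, which reads from the opposite strand in all 4. They are printed 5′ to 3′ on the plus strand, which is the strand of each gene, from chr3:122245398-122245456 (*Gclm*), chr4:116685441-116685499 (*Prdx1*), chr16:90220681-90220739 (*Sod1*) and chr10:82859089-82859147 (*Txnrd1*).
Gclm: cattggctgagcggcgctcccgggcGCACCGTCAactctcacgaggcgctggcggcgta
Prdx1: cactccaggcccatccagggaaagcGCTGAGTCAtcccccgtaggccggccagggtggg
Sod1: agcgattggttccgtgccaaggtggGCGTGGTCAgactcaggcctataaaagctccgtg
Txnrd1: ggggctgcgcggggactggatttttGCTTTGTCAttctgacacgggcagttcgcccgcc

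The core of *Gclm* lies with its first base 134 bases before the start site, and those of *Prdx1*, *Sod1* and *Txnrd1* lie 133, 56 and 92 bases before it. An AP-1 site overlaps the core in *Prdx1*. The other cores were in *Mgst1* and *Nfe2l2*. Of these 6 genes, *Gclm* was the 1 with an unadjusted p under 0.05, and log2 fold changes were -0.34 for *Gclm*, -0.16 for *Mgst1*, 0.02 for *Nfe2l2*, 0.07 for *Prdx1*, -0.11 for *Sod1* and -0.04 for *Txnrd1*. Genes with the core thus had fold changes in both directions. The promoter of *Txnrd2*, the member with the smallest p, held none of the ARE, AP-1 and E-box letters and 1 GC box, in capitals, in the stretch before its start site that lies in no annotated exon (plus strand, chr16:18426167-18426355).
Txnrd2: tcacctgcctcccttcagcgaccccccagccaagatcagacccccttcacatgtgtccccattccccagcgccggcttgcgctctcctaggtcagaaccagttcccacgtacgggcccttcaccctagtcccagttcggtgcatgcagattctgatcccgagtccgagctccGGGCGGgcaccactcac

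Called genes and unadjusted p-values were read against all 14165 tested genes. The main rule called 32 of them (0.226%), and no member. At an unadjusted edgeR p under 0.05, 2 members were higher in CKO (*Glrx3* and *Prdx3*), against 5.8% of all genes, and 6 were lower (*Txnrd2*, *Prdx5*, *Srxn1*, *Gclm*, *Gss* and *Prdx2*), against 7.08%. CPM of the genotypes did not overlap for 2 members that were higher (*Glrx3* and *Prdx3*), against 1.35%, and 2 that were lower (*Txnrd2* and *Prdx5*), against 1.98%. A negative log2 fold change was found for 66.7% of members and 49% of all tested genes, whose median log2 fold change was 0.01. Without the library labelled CKO 3, 1 member was higher (*Gclc*) and 6 were lower at the same unadjusted p, against 5.19% and 6.25% of genes. Leaving out CTL 1 or CKO 1 left 3 members lower, and the members' median log2 fold change was -0.05 without CTL 1 and -0.05 without the library labelled CKO 3. The share of all tested genes was not counted without CTL 1 or CKO 1. DESeq2's Wald test called 1 member, *Txnrd2* (adjusted p = 0.0169), where it called 2.43% of genes.

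GC content differed between members with positive and negative fold changes. The 12 members with a positive log2 fold change had a median transcript GC content of 46.7%, and the 24 with a negative one 50.6%, against 48.8% over all tested genes. With an offset per library for GC content and gene length, 0 members were higher and 3 were lower (*Gclm*, *Txnrd2* and *Gss*) at an unadjusted p under 0.05, against 3.25% and 3.71% of genes, and the members' median log2 fold change was -0.05. Such an offset also removes any effect of genotype that follows GC content.

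**Figure D3:**
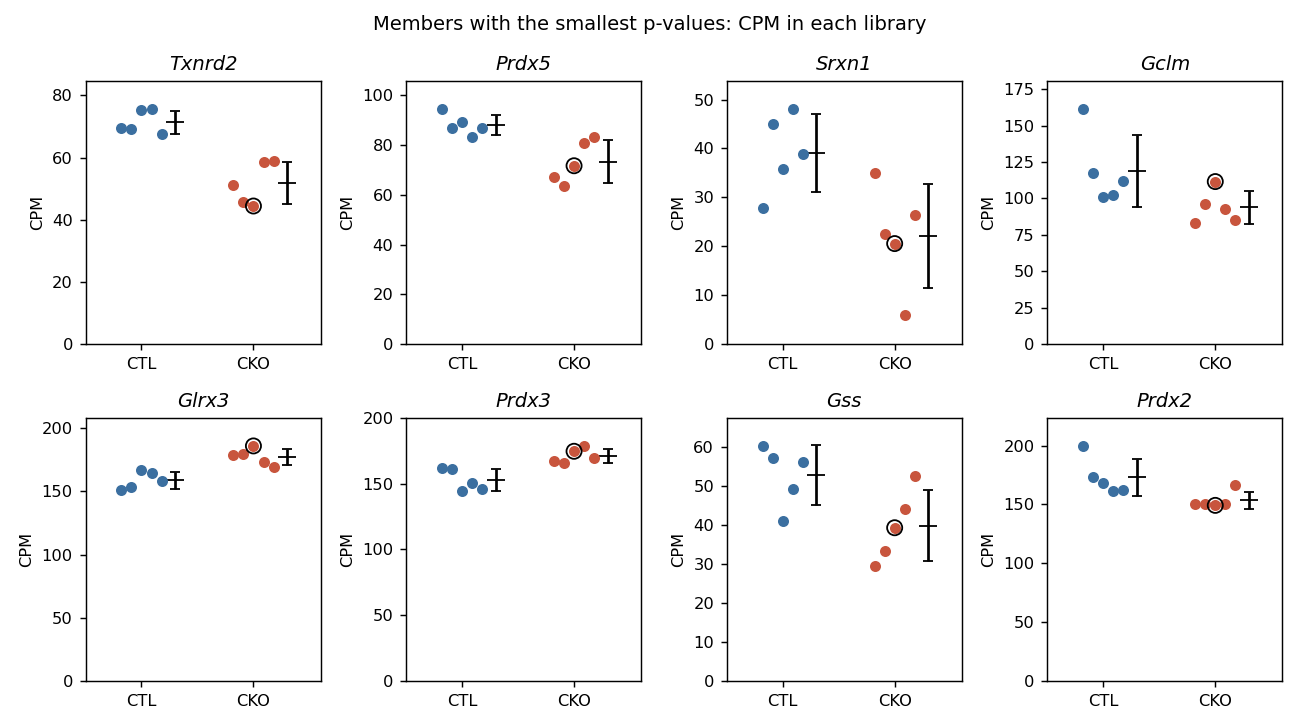
CPM (vertical axis, from 0) in each library for the 8 members with an unadjusted p under 0.05, replicates 1 to 5 from left to right, with the mean and SD beside each group and a ring around the library labelled CKO 3. The genotypes do not overlap for Txnrd2, Prdx5, Glrx3 and Prdx3, and overlap for Srxn1, Gclm, Gss and Prdx2.

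In the thioredoxin system, reductases use NADPH to keep thioredoxins reduced. *Txnrd2*, the mitochondrial reductase (chr16, plus strand), measured 69.6, 69.2, 75.3, 75.6 and 67.6 CPM in CTL 1 to 5. It measured 51.3, 45.8, 44.4, 58.5 and 59.0 CPM in CKO 1 to 5, so the highest CKO library lay 8.62 CPM under the lowest CTL library. The log2 fold change was -0.46 (SE 0.11, edgeR adjusted p = 0.109), -0.41 without the library labelled CKO 3, and -0.31 with the offset for GC content and length (adjusted p = 0.592). In each of these fits the genotypes did not overlap.

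The other members of the system overlapped between the genotypes. *Txnrd1*, the cytosolic reductase, measured 221, 254, 245, 259 and 243 CPM in CTL and 224, 260.0, 227, 235 and 239 CPM in CKO, with a log2 fold change of -0.04 (SE 0.07). *Txn1*, cytosolic thioredoxin, measured 133, 119.5, 124, 110.2 and 112 CPM in CTL and 124, 119.7, 126, 131 and 128 CPM in CKO (log2 fold change 0.07, SE 0.08). *Txn2*, the mitochondrial thioredoxin that *Txnrd2* reduces, measured 136, 124, 114, 117 and 105 CPM in CTL and 115, 103, 111, 114 and 127 CPM in CKO (log2 fold change -0.06, SE 0.09). The sign of *Txn2* turned with the offset for GC content and length (0.03). *Txnrd3*, a reductase with a glutaredoxin domain, had a log2 fold change of -0.11 (SE 0.11). *Txnip*, which binds and inhibits thioredoxin, had one of -0.12 (SE 0.13) and spread widely, from 382 to 627 CPM over CKO libraries.

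Peroxiredoxins reduce hydrogen peroxide with electrons from thioredoxin, and 4 of the 7 genes of this group, the repair enzyme *Srxn1* included, had an unadjusted p under 0.05 (1 higher and 3 lower, against 5.8% and 7.08% of all tested genes). Without the library labelled CKO 3, 0 were higher and 2 lower, and with the offset for GC content and length 0 were higher and 0 lower. *Prdx5*, found in mitochondria, peroxisomes and cytosol (chr19, minus strand), measured 94.3, 86.6, 89.1, 83.4 and 86.7 CPM in CTL. It measured 67.0, 63.3, 71.6, 80.8 and 83.2 CPM in CKO, and CKO 5 came within 0.17 CPM of the lowest CTL library. The log2 fold change was -0.27 (SE 0.10, edgeR adjusted p = 0.293), and the genotypes overlapped by DESeq2's size factors. With the offset for GC content and length the log2 fold change was -0.16 (adjusted p = 0.786), and the genotypes overlapped there too. *Prdx5* shares 409 exonic bases with *Trmt112* on the other strand, which had a log2 fold change of -0.14. Whether reads were assigned by strand is not given in the sources used here.

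*Prdx3*, the peroxiredoxin of mitochondria that thioredoxin 2 serves, had a positive fold change. It measured 162, 161, 144, 151 and 146 CPM in CTL and 167, 166, 175, 179 and 169.8 CPM in CKO, so that all CKO libraries were above all CTL libraries. The log2 fold change was 0.16 (SE 0.07, edgeR adjusted p = 0.325) and 0.08 with the offset for GC content and length, where the genotypes overlapped. *Prdx2*, a cytosolic peroxiredoxin abundant in blood cells, measured 199.6, 173, 168, 161 and 162 CPM in CTL and 151, 150.4, 149, 150.2 and 166 CPM in CKO. Of its CKO libraries, 4 lay within 1.6 CPM of each other and under every CTL library, while CKO 5 was inside the CTL range. Its log2 fold change was -0.17 (SE 0.08, edgeR adjusted p = 0.369). The highest CTL value was that of CTL 1, and without CTL 1 the log2 fold change was -0.12 (adjusted p = 0.539).

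*Srxn1*, sulfiredoxin, which repairs overoxidised peroxiredoxins and is an NRF2 target, had the most negative log2 fold change of the 36. It measured 27.8, 45.0, 35.9, 48.0 and 39.0 CPM in CTL and 34.9, 22.5, 20.6, 5.88 and 26.5 CPM in CKO, and CKO 4 rested on 20 counts. CTL 1, the lowest CTL library, was below CKO 1, the highest CKO library, and the other libraries kept apart. The log2 fold change was -0.82 (SE 0.32, edgeR adjusted p = 0.313), -0.59 without CKO 4. *Prdx1*, the other major cytosolic peroxiredoxin, measured 246, 201, 212, 204 and 199.5 CPM in CTL and 218, 227, 228, 229 and 215 CPM in CKO (log2 fold change 0.07, SE 0.07). Apart from CTL 1, every CTL library of *Prdx1* was below every CKO library, and the sign turned with the offset for GC content and length (-0.06). A near-identical copy, *Gm21399*, matched 597 bases of *Prdx1* at 98.3% identity, so reads of the pair may have been split. *Prdx6*, a cytosolic peroxiredoxin that uses glutathione, and *Prdx4*, the peroxiredoxin of the endoplasmic reticulum, had log2 fold changes of -0.04 (SE 0.07) and 0.08 (SE 0.08).

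Glutathione is made from glutamate, cysteine and glycine in a pair of steps, and its enzymes had fold changes of both signs. *Gclm*, the modifier subunit of glutamate-cysteine ligase (chr3, plus strand, with the ARE core shown above), measured 161, 117, 101, 102 and 112 CPM in CTL and 83.2, 96.0, 112, 92.9 and 85.5 CPM in CKO. The library labelled CKO 3 was the highest of the CKO libraries and lay inside the CTL range, and the other 4 were below it. The log2 fold change was -0.34 (SE 0.13, edgeR adjusted p = 0.313). Without the library labelled CKO 3 it was -0.41 (adjusted p = 0.240), with no overlap left. Without CTL 1 it was -0.21 (adjusted p = 0.479), and with the offset for GC content and length -0.49 (adjusted p = 0.505).

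*Gclc*, the catalytic subunit of the same ligase, had a positive fold change, at 34.8 ± 7.47 CPM in CTL and 43.5 ± 5.90 CPM in CKO (log2 fold change 0.32, SE 0.17, edgeR adjusted p = 0.449), and 0.40 without the library labelled CKO 3 (adjusted p = 0.391). The difference in fold change between the subunits was not tested. *Gss*, glutathione synthetase, which completes the molecule, measured 60.2, 57.1, 40.9, 49.2 and 56.0 CPM in CTL and 29.5, 33.4, 39.2, 44.1 and 52.5 CPM in CKO. The lower 3 CKO libraries were under every CTL library and CKO 4 and CKO 5 were inside the CTL range. Its log2 fold change was -0.41 (SE 0.17, edgeR adjusted p = 0.336). *Gss* shares 395 exonic bases with *Acss2* on the other strand, whose log2 fold change was -0.20 (edgeR adjusted p = 0.449). *Gsr*, the reductase that restores glutathione with NADPH, had a log2 fold change of -0.13 (SE 0.12).

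Glutathione peroxidases had negative log2 fold changes in 4 of 4 cases, against 49% of all tested genes, and none had a p under 0.05. *Gpx1*, the main peroxidase of hydrogen peroxide, was at 236 ± 24.4 CPM in CTL and 228 ± 17.9 CPM in CKO (-0.05, SE 0.08). *Gpx4*, which reduces lipid peroxides and guards against ferroptosis, was at 100.1 ± 9.08 and 88.9 ± 7.77 CPM (-0.17, SE 0.10, edgeR adjusted p = 0.488). *Gpx7* and *Gpx8*, peroxidases of the endoplasmic reticulum, had log2 fold changes of -0.27 (SE 0.27) and -0.57 (SE 0.62). Counts of *Gpx8* ran from 3 to 95 per library, with 8.96 ± 6.98 CPM in CTL and 6.04 ± 4.72 CPM in CKO. CTL 5 was the highest library, and without it the log2 fold change of *Gpx8* was 0.0067, while without the library labelled CKO 3 it was -1.09 (adjusted p = 0.546).

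Glutaredoxins use glutathione to reduce protein disulfides or carry iron-sulfur clusters. All 4 had positive log2 fold changes, where 49% of all tested genes had a negative one. *Glrx3*, a cytosolic iron-sulfur carrier (chr7, plus strand), measured 151, 154, 167, 164 and 158 CPM in CTL and 179, 179.8, 186, 173 and 169.6 CPM in CKO, so every CKO library was above every CTL library. The log2 fold change was 0.16 (SE 0.06, edgeR adjusted p = 0.320) and 0.08 with the offset for GC content and length, where the genotypes overlapped. A near-identical copy, *Gm12669*, matches 964 bases of *Glrx3* at 99.1% identity and held 3.71 ± 1.79 CPM in CTL and 5.88 ± 1.71 CPM in CKO.

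The other glutaredoxins lay close to 0. *Glrx*, the classic cytosolic enzyme, measured 115, 113, 108, 108 and 96.7 CPM in CTL and 113, 105, 101, 115 and 107 CPM in CKO (0.0041 log2, SE 0.08). *Glrx2*, its mitochondrial counterpart, measured 114, 90.4, 97.0, 106 and 89.3 CPM in CTL and 109, 124, 95.2, 103 and 96.3 CPM in CKO (0.09 log2, SE 0.10). *Glrx5*, which passes iron-sulfur clusters on in mitochondria and is needed for heme synthesis, measured 68.9, 78.3, 68.5, 77.0 and 74.8 CPM in CTL and 71.8, 69.0, 80.8, 72.6 and 79.5 CPM in CKO (0.02 log2, SE 0.09). In all 3 the genotypes overlapped, and with the offset for GC content and length the log2 fold changes of *Glrx* and *Glrx2* turned negative (-0.06 and -0.03).

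Superoxide dismutases and catalase also overlapped. *Sod1*, of cytosol and intermembrane space, measured 148, 122, 124, 110.2 and 116 CPM in CTL and 108, 91.0, 119, 128 and 127 CPM in CKO (log2 fold change -0.11, SE 0.11). *Sod2*, the manganese enzyme of the mitochondrial matrix, measured 176, 148, 145, 146 and 138 CPM in CTL and 144, 144, 160.5, 159 and 152 CPM in CKO (log2 fold change 0.01, SE 0.08), and its sign turned with the offset for GC content and length (-0.12). CTL 1 was the highest library of both genes. *Cat*, the peroxisomal catalase, had a log2 fold change of -0.06 (SE 0.07).

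Glutathione transferases, which attach glutathione to reactive compounds, had negative log2 fold changes in 4 of 4 cases, against 49% of all tested genes. None had a p under 0.05. The log2 fold changes were -0.07 (SE 0.10) for *Gstm1*, -0.14 (SE 0.11) for *Gstp1*, -0.16 (SE 0.16) for *Mgst1* and -0.26 (SE 0.20) for *Mgst3*. The first pair is cytosolic and the second is bound to membranes. *Gstp1* matches *Gstp2* over 707 bases at 98.2% identity, so its counts are uncertain.

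NRF2, its regulator and its targets complete the members. *Nfe2l2*, which encodes NRF2, was at 175 ± 15.2 CPM in CTL and 177 ± 15.2 CPM in CKO (log2 fold change 0.02, SE 0.08). *Keap1*, the adaptor that sends NRF2 to degradation, was at 122 ± 5.49 and 109 ± 12.02 CPM (-0.17, SE 0.09, edgeR adjusted p = 0.438). *Nqo1*, a quinone reductase and NRF2 target, was at 31.0 ± 7.68 and 23.0 ± 7.85 CPM (-0.43, SE 0.25, edgeR adjusted p = 0.497). *Hmox1*, the heme-degrading oxygenase that NRF2 induces and BACH1 represses, was at 25.04 ± 7.05 and 26.2 ± 9.73 CPM (0.06, SE 0.29). *Nqo1* and *Hmox1* thus had fold changes of opposite sign, with overlapping genotypes in both.

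**Figure D4:**
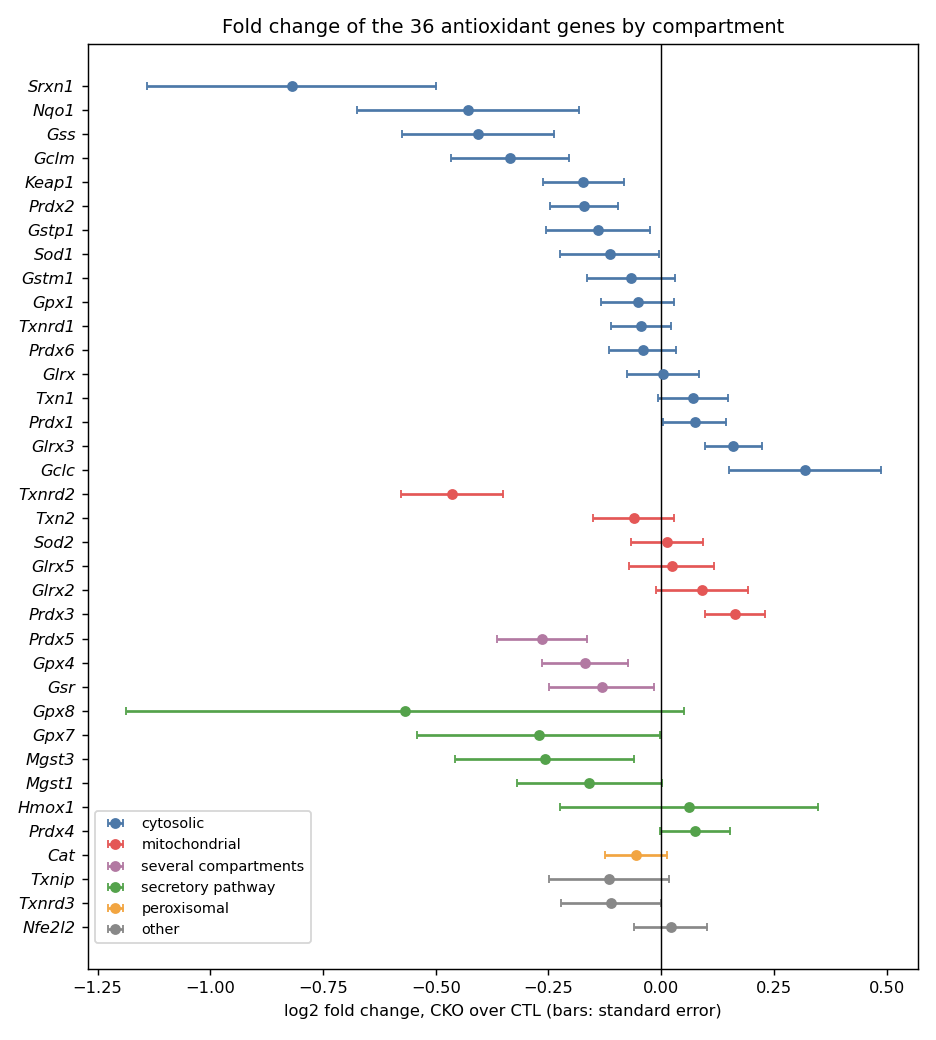
Log2 fold change, CKO over CTL (horizontal axis), of the 36 genes with bars of 1 standard error, coloured and ordered by compartment. Most points lie left of 0, Txnrd2 stands apart from the other mitochondrial genes at -0.46, and the widest bars belong to genes with few counts such as Gpx8.

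By compartment, 12 of 17 cytosolic members had negative log2 fold changes, against 49% of all tested genes. At an unadjusted p under 0.05, 1 was higher and 4 were lower, against 5.8% and 7.08% of all tested genes. Of the 6 mitochondrial members 4 were positive, with 1 higher (*Prdx3*) and 1 lower (*Txnrd2*) at that p. Members listed for several compartments (*Prdx5*, *Gpx4* and *Gsr*) were all negative, and their summed level was 585 to 635 TPM in CTL and 476 to 558 TPM in CKO. These sums did not overlap, with *Prdx5*, whose own values did not overlap, the largest part of them. The sums of the other 5 classes overlapped, among them 3648 to 4094 TPM in CTL and 3508 to 3709 TPM in CKO for cytosolic members. Members of the secretory pathway had a median of -0.21, 4 of 6 being negative, and a median of -0.11 without the library labelled CKO 3. Mitochondrial enzymes made up 19.4 ± 0.706% of the summed cytosolic and mitochondrial TPM in CTL and 20.2 ± 0.349% in CKO, with overlapping ranges of 18.6% to 20.3% and 19.8% to 20.6%.

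Ratios within a library compare each mitochondrial enzyme with its cytosolic paralog per length. They are descriptions of the same values and were given no test. The log2 ratio of *Txnrd2* over *Txnrd1* was -0.59, -0.80, -0.62, -0.70 and -0.77 in CTL 1 to 5 and -1.05, -1.43, -1.27, -0.93 and -0.94 in CKO 1 to 5. The genotypes did not overlap, and the mean ratio was 0.617 in CTL and 0.459 in CKO. *Prdx3* over *Prdx2* went the other way, at -0.92, -0.72, -0.84, -0.71 and -0.77 in CTL and -0.47, -0.48, -0.39, -0.37 and -0.59 in CKO, again without overlap (mean ratios 0.577 and 0.728). Against *Prdx1* in place of *Prdx2* the ratio of *Prdx3* overlapped (0.707 and 0.751). The ratios of *Txn2* over *Txn1* (0.814 in CTL, 0.743 in CKO), *Sod2* over *Sod1* (0.206 and 0.226), *Glrx2* over *Glrx* (0.326 and 0.345) and *Glrx5* over *Glrx3* (0.821 and 0.747) overlapped as well. The mean ratio was thus lower in CKO than in CTL in 3 of the 7 pairs and higher in 4, both pairs of *Prdx3* among the latter.

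**Figure D5:**
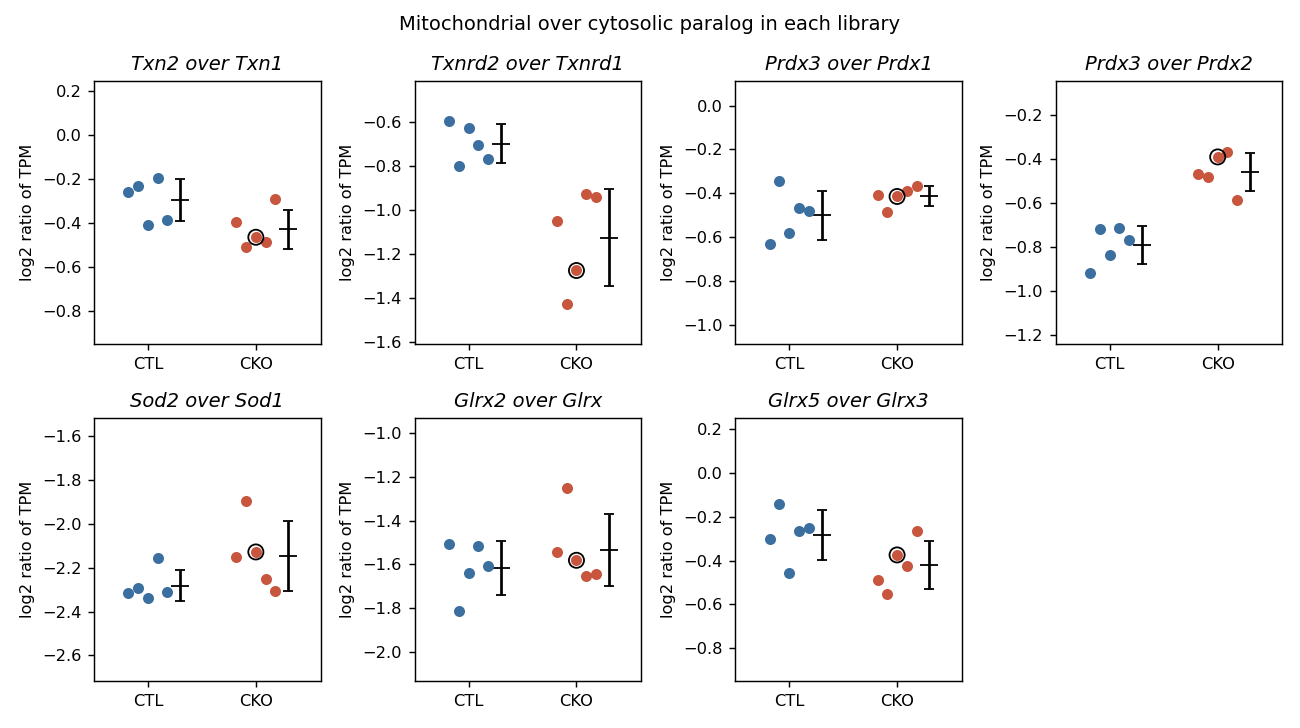
Log2 ratio of TPM of a mitochondrial gene over its cytosolic paralog (vertical axis, each panel spanning 1.2 log2 units) in each library, with the mean and SD beside each group and a ring around the library labelled CKO 3. The genotypes are apart for Txnrd2 over Txnrd1, lower in CKO, and Prdx3 over Prdx2, higher in CKO, and overlap in the other 5 pairs.

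Related genes from 7 hand-written lists, 144 in all and 132 tested were counted the same way. None was called, and 7 were higher and 13 lower at an unadjusted p under 0.05, against 5.8% and 7.08% of all tested genes. A negative log2 fold change was found for 83 of 132, against 49% of all tested genes, and the median was -0.06. With the offset for GC content and length 2 were higher and 2 lower, against 3.25% and 3.71%. The NRF2 and BACH1 network held 2 that were higher and 6 that were lower of 22 tested, 2 and 3 without the library labelled CKO 3, and 0 of each with the offset for GC content and length. Its lower genes were *Sqstm1*, *Nfe2*, *Aldh2*, *Osgin1*, *Mafk* and *Ephx1*.

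Among all 7 lists the smallest p-values of genes higher in CKO belonged to *Nqo2*, *Cul3* and *Arrdc3*. *Nqo2*, a quinone reductase, was at 79.3 ± 10.9 CPM in CTL and 112 ± 24.7 CPM in CKO (0.50 log2, SE 0.14, edgeR adjusted p = 0.168). *Cul3*, the ubiquitin ligase scaffold that works with KEAP1, was at 92.9 ± 17.2 and 121 ± 16.9 CPM (0.38 log2, SE 0.13, adjusted p = 0.261). *Arrdc3*, an arrestin-fold relative of *Txnip*, was at 134 ± 13.5 and 166 ± 25.2 CPM (0.31 log2, SE 0.11, adjusted p = 0.270). Lower in CKO with the smallest p-values were *Sqstm1*, *Gsta4* and *H6pd*. *Sqstm1*, the autophagy receptor p62 that binds KEAP1, measured 239, 221, 211, 211 and 221 CPM in CTL and 192, 182, 187, 179.6 and 207 CPM in CKO (-0.22 log2, SE 0.07, adjusted p = 0.178). It was the 1 gene of the 132 without overlap between the genotypes. Over all tested genes 1.35% were higher and 1.98% lower without overlap. The log2 fold change of *Sqstm1* was -0.08 with the offset for GC content and length. *Gsta4*, a transferase of lipid aldehydes, was at 25.1 ± 5.29 and 14.5 ± 4.79 CPM (-0.79 log2, SE 0.25, adjusted p = 0.214). *H6pd*, which makes NADPH inside the endoplasmic reticulum, was at 62.1 ± 9.23 and 46.1 ± 7.22 CPM (-0.43 log2, SE 0.14, adjusted p = 0.237). With the same offset the log2 fold changes of *Cul3*, *Arrdc3* and *H6pd* were 0.23, 0.14 and -0.22, and those of *Nqo2* and *Gsta4* were 0.36 and -0.81.

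NADPH supply as a list had 0 genes higher and 2 lower (*H6pd* and *Aldh1l1*) of 19 tested at an unadjusted p under 0.05. Over all tested genes these shares were 5.8% and 7.08%, to be read beside each list below. *Nnt* encodes a mitochondrial transhydrogenase that can supply NADPH to *Txnrd2* and *Gsr*, and it carries a known deletion in C57BL/6J mice. It was at 91.8 ± 18.8 CPM in CTL and 84.5 ± 18.1 CPM in CKO (-0.12 log2, SE 0.16), with counts in all 10 libraries. Counts per gene do not show whether its transcript was functional, which was not tested. Other glutathione transferases and peroxidases had 14 of 16 tested genes negative, against 49% of all tested genes. Their median log2 fold change was -0.17, and 1 of them, *Gsta4*, was at a p under 0.05. Glutathione turnover and transport held 1 higher (*Ggct*) and 1 lower (*Slc25a39*, a mitochondrial glutathione importer) of 13. Selenoproteins and their synthesis held 1 higher (*Selenot*) and 3 lower (*Selenoo*, *Selenom* and *Trnau1ap*) of 20, other thioredoxin-fold proteins 1 higher (*Arrdc3*) of 22, and other antioxidant proteins 2 higher (*Ncoa7* and *Ncf1*) of 20.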

How the data were processed

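HSCs of 10 mice, 5 of each genotype, were profiled by RNA-seq, 1 library per mouse. Per the study's methods, the authors mapped single-ended reads to the GRCm38 (mm10) genome with HISAT2, the aligner that the submitters' notes also name, counted reads per gene with Rsubread, and deposited whole-number counts per gene symbol, not normalized, with a gene length in bases. The annotation, the use of strand, reads that match several genes and any removal of duplicate reads are not given in the sources used here. Samples were grouped by the genotype in their labels.

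edgeR 4.0.16, run in R 4.3.3, was used for the counts. Its filterByExpr kept 14165 of 26146 genes, libraries were scaled by TMM, and the genotypes were compared over all kept genes by its quasi-likelihood test with robust dispersions, and p-values were adjusted by Benjamini-Hochberg. A call needed an adjusted p under 0.05 and a fold change above 20%. CPM used TMM-scaled totals and TPM the deposited gene lengths. A prior count of 2 was used for log2 CPM, and the main fold changes came from the quasi-likelihood fit. The biological coefficient of variation was 25.3%. No libraries were identical.

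The members, the gene lists and the tests were chosen with earlier results of these data known, and the lists carry no p-value of their own. Members with an unadjusted p under 0.05, without overlap, or in a paralog pair are given in every library. Of the related genes, the 3 with the smallest p in each direction and *Nnt* are given with values, and the others named were counted at an unadjusted p under 0.05. *Trmt112* and *Acss2* were named for overlapping a member. Some genes are not reported here. Positions and overlaps come from the GENCODE annotation of GRCm38, near-identical copies from a transcript search (at least 100 matching bases, 95% identity), and promoters from RefSeq.

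Alternatives were DESeq2 1.42.0 (Wald test) and its size factors, no filter, at least 10 counts in every library, the replicate number as a block, an offset for GC content and length (loess, span 50%), each library left out in turn and, chosen after the data were seen, an offset for counts per base. The scripts were tested on simulated data, where edgeR recovered 168 of 200 changed genes with 8 false calls among 13634 genes and DESeq2 recovered 175 with 30 false calls.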

Additional observations from a re-analysis of the deposited data

Results flagged for a closer look

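In 5 of the 72 groups of 5 libraries (36 genes in each genotype), 1 library lay far from the others of its group in CPM, its gap to the nearest taking more than 0.71 of the group's whole range. Chance flags about 1 in 20 groups. *Prdx1* was highest in CTL 1, at 246 CPM (gap 0.712 of the range), and *Sod2* was highest in CTL 1, at 176 CPM (0.731). CTL 1 is the smallest library and was the highest of its group for 19 of 36 members. *Prdx2* was highest in CKO 5, at 166 CPM (0.905), with the other 4 CKO libraries under the whole CTL range. *Cat* was highest in CKO 2, at 243 CPM (0.753), and *Mgst1* was lowest in the library labelled CKO 3, at 27.2 CPM from 115 counts (0.769). The origin of these values was not tested.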

How the results depend on the processing

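By the main test 17 genes were called higher and 15 lower, and 0 members, with 8 members at an unadjusted p under 0.05. DESeq2's Wald test called 146 and 192 genes and 1 member (*Txnrd2*), and by its size factors 1 member was without overlap and lower. Without a filter 0 members were higher at that p and 1 was higher without overlap, as was 1 with at least 10 counts in every library and 1 with the offset for counts per base. With the offset for GC content and length 5 genes were called higher and 3 lower, 0 members were higher and 3 lower at that p, and 0 were higher and 1 lower without overlap. With a replicate block 9 genes were called lower and 0 members were higher at that p. Same-numbered libraries did not deviate together in every pair (correlations of 0.0096, -0.095, 0.21, 0.0027 and 0.19). The sources used here do not say whether same-numbered mice were handled together, and pairing by other measures was not tested. Leaving out 1 library at a time gave 5 to 27 genes called higher and 3 to 18 lower, 0 members called, 1 to 2 members higher (1 without CTL 1, 2, 3 or 5 or CKO 3, 4 or 5) and 3 to 7 lower at that p (3 without CTL 1 or CKO 1), 2 to 3 higher and 2 to 3 lower without overlap, and a median log2 fold change of -0.13 (without CKO 5) to -0.030 (without the library labelled CKO 3) for cytosolic and -0.0064 to 0.032 for mitochondrial members. At that p, shares of all genes were counted only for the main fit, without CKO 3 and with the GC content and length offset. Shares without overlap were counted for the main fit only, so the other member counts have no background here. Most calls over all genes were lost without CKO 2 (5 higher, 3 lower). Fold changes near 0 turned sign: *Txn2* (0.028), *Glrx2* (-0.034) and *Prdx1* (-0.063) with the offset for GC content and length, *Sod2* without a filter (-0.0040) and with that offset (-0.12), *Glrx* without a filter (-0.013) and with that offset (-0.061), and, with 1 library left out, *Sod2* (-0.019 to 0.067), *Glrx5* (-0.0087 to 0.048) and *Glrx* (-0.037 to 0.027). The other members with values in every library kept their sign in every alternative. The cause was not tested.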
